A study of Mus musculus with 8 samples.

Results

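Wnt ligands are the secreted proteins that start Wnt signalling, and the 10 described here are Wnt2, Wnt2b, Wnt4, Wnt5a, Wnt5b, Wnt6, Wnt7a, Wnt7b, Wnt11 and Wnt16. They were chosen by name from the 52308 genes counted in the mouse uterus. The rule held no measured value, but the list was made with earlier results of these data known. All 10 passed the filter on low counts, as did 18114 of the 52308 genes and 1 of 9 other Wnt genes. The mice were ICR females, an outbred stock, aged 6 to 8 weeks, and the tissue was the uterus. No treatment or transgene is labelled. Each mouse was staged by a vaginal smear, in which the kinds and numbers of cells on a stained slide give the stage, and the uterus was then taken. Proestrus, estrus, metestrus and diestrus had 2 libraries each, 8 in all, made from polyadenylated RNA. The labels do not say that the libraries of a stage came from separate animals, so a p-value here measures only the spread between these libraries. Nor do they give a separation of endometrium and muscle. In such bulk RNA, fewer cells of a type and less RNA per cell cannot be told apart.

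Wnt proteins are made lipid-bearing by Porcn and carried out of the cell by Wls. They bind Frizzled receptors on nearby cells. Binding together with the co-receptors Lrp5 or Lrp6 stabilises beta-catenin, which then acts with TCF and LEF proteins on genes such as Axin2. Other ligands, Wnt5a and Wnt11 among them, act largely through Ror, Ryk and planar polarity proteins without beta-catenin. In the mouse uterus, Wnt4, Wnt5a and Wnt7a are known for building the tract and its glands, and Wnt4 is also needed for the stromal change called decidualisation.

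The total count per library lay between 17863546 and 21896786. Values are CPM, counts scaled to a fixed library size with TMM factors, and ± after a mean is the SD of n = 2 libraries. Tests are edgeR's quasi-likelihood F test with Benjamini-Hochberg adjustment over all 18114 genes tested, called under 0.05. After a log2 fold change, ± gives its SE. Diestrus library 1 stood apart from the others. Its 6 gland markers summed to 7723 CPM, against 56.6 CPM in diestrus library 2 and 35.1 to 72.3 CPM in the libraries of the other stages. Prss29, a serine protease of uterine glands, alone gave 5509 CPM of that sum, against 0.0504 CPM in diestrus library 2. Prss28 was at 2039 CPM in diestrus library 1 and at 0 in diestrus library 2. Of the 6 gland markers, 3 had counts in every library. Against metestrus, Spink1 was higher in both diestrus libraries, and Cxcl15 and Lif were lower in both. Foxa2 had a log2 difference of -0.02 in diestrus minus metestrus. The 8 smooth muscle markers, all with counts in every library, had a sum of 17555 CPM in the first diestrus library and 6806 CPM in the second. Between the 2 libraries of a stage, 7.99% of the tested genes were over 2-fold apart at proestrus, 7.08% at estrus, 4.62% at metestrus and 15.0% at diestrus. Many results that rest on diestrus are therefore also given without its libraries.

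Promoters are shown for 4 ligands chosen for their diestrus levels. Wnt4 and Wnt7a were low there, and Wnt6 and Wnt11 were high. Each window is 300 bases long, from 250 bases before to 50 bases after a gene start of the RefSeq table (GRCm38.p6). It is written 5′ to 3′ on the strand of the gene. The RefSeq start of Wnt4 lies inside the gene as placed by GENCODE, which begins at 137277489. Most of the Wnt4 window therefore lies within that gene. Capitals mark the letters GGGCGG bound by Sp1, or their reverse complement CCGCCC. In Wnt11 they also mark TCAAAG, the reverse complement of the TCF and LEF letters CTTTGA.
Wnt4, chr4:137277385-137277684, plus strand: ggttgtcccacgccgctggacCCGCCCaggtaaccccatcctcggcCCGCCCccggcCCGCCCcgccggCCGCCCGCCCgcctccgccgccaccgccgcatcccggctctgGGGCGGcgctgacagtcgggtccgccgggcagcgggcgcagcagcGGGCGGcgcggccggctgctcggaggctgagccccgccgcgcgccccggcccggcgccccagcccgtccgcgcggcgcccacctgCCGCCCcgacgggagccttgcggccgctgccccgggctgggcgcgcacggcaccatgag
Wnt7a, chr6:91411304-91411603, minus strand: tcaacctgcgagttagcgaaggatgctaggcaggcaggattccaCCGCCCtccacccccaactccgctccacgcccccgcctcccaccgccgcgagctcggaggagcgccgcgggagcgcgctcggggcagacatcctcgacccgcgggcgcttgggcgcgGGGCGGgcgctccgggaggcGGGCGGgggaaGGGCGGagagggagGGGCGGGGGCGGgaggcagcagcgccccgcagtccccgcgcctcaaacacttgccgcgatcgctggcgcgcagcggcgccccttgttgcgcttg
Wnt6, chr1:74771642-74771941, plus strand: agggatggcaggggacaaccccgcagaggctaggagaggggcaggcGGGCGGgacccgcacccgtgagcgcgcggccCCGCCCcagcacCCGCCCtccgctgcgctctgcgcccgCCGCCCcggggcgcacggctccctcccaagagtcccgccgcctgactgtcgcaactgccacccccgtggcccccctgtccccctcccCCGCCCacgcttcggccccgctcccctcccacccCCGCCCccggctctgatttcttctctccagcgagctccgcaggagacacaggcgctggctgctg
Wnt11, chr7:98834862-98835161, plus strand: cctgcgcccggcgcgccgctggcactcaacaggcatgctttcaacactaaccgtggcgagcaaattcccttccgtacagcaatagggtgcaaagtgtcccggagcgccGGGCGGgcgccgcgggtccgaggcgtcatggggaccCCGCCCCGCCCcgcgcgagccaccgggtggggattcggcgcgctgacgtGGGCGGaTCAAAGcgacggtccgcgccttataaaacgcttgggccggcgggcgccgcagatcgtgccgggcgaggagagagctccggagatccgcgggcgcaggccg
All 4 windows were rich in G and C, with 84.3% in Wnt4, 76.0% in Wnt7a, 76.7% in Wnt6 and 71.3% in this Wnt11 window, against a median of 52.7% over the 32851 windows of the table. The table held 11 windows for 8 of the 10 ligands, and none for Wnt5a and Wnt7b. The Wnt5b windows at chr6:119449337-119449636 and chr6:119467162-119467461 lie inside that gene as placed by GENCODE. The Wnt11 window not printed here lies inside its gene too. Searched on both strands, GGGCGG was in 9 of these 11 windows, against 35.7% of all windows. By ligand, 7 of the 8 had it. These letters are all G or C, and the comparison makes no allowance for the share of G and C in a window. The TCF and LEF letters were in 2 of the 11, the Wnt11 window printed here and a Wnt5b window, against 16% of all windows. In Wnt11 their first base lay 50 bases before the gene start. The full estrogen response element (GGTCA and TGACC around 3 free bases) was in none of the 11 windows and in 0.0700% of all windows. The progesterone and glucocorticoid element (GNACA and TGTNC around 3 free bases) was likewise in none of the 11 and in 0.475% of all. The shorter GGTCA, which is one arm of the full estrogen element and so overlaps it, was in 3 of the 11 windows, in Wnt16 and Wnt5b, against 40.5% of all windows. A match is a run of letters and not a bound site, and the absence of one says only that the letters are not in these windows.

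The 10 ligands formed a mixture whose summed level per length differed little between 7 of the 8 libraries, while its makeup differed between stages. To compare genes, CPM were divided by the exon length of each gene in kilobases. The sum over the 10 ligands was 74.8 and 79.6 CPM per kb at proestrus, 74.8 and 77.4 at estrus, 77.5 and 73.2 at metestrus, and 37.98 and 67.5 at diestrus. Thus 7 libraries lay between 67.5 and 79.6 CPM per kb, and diestrus library 1 lay below them. Not divided by length, the CPM of the 10 ligands summed to 429 and 466 at proestrus and 351 and 350 at estrus. They summed to 421 and 425 at metestrus, and 207 and 386 at diestrus. By that measure both estrus libraries lay below all others except diestrus library 1. Wnt5a made up 46.0% and 50.1% of that sum at proestrus, 18.1% and 15.1% at estrus, 44.9% and 53.1% at metestrus, and 42.2% and 50.2% at diestrus. It ranked first in all 6 libraries outside estrus. In both estrus libraries Wnt4 ranked first, with 29.1% and 30.3% of the sum, against 16.8% and 12.1% in proestrus.

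**Figure D1:**
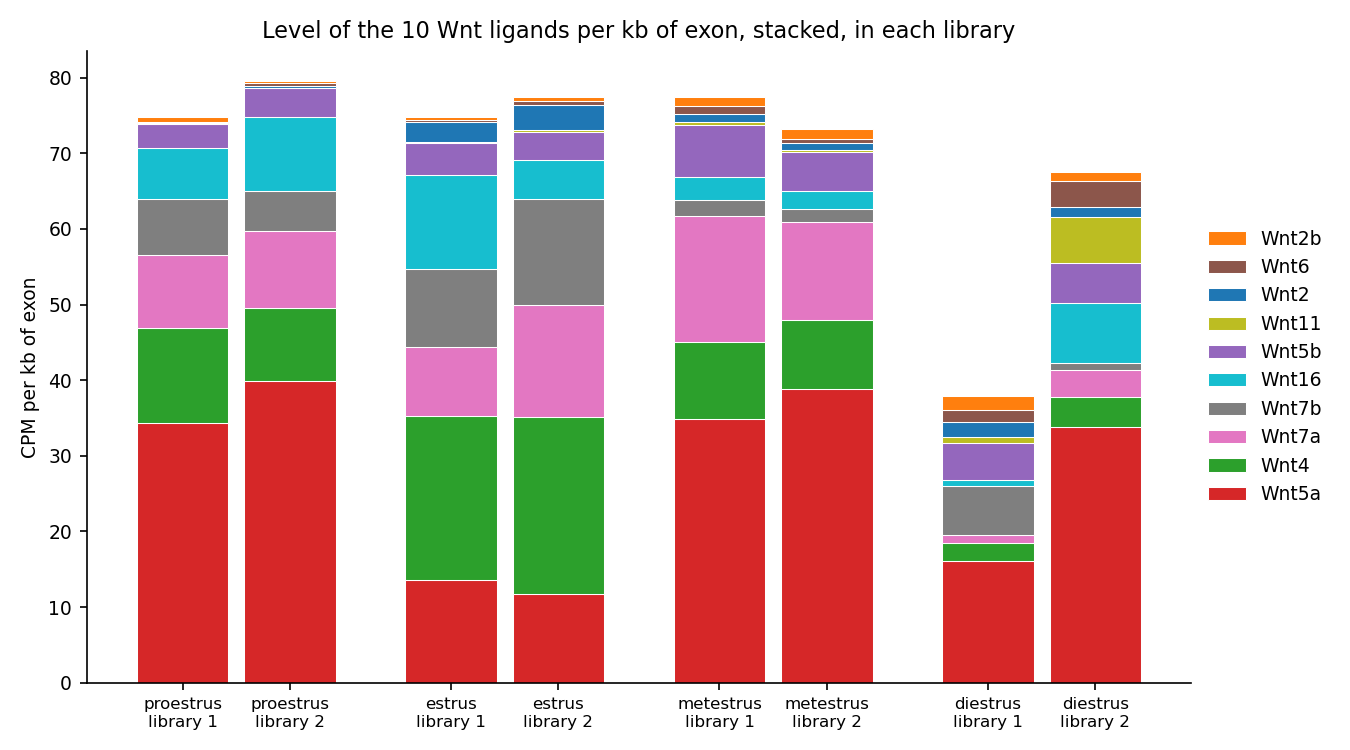
Level of the 10 Wnt ligands in CPM per kb of exon, stacked, with 1 bar for each of the 8 libraries and the stages in cycle order. Wnt5a makes up 42.2% to 53.1% of the bar in the 6 libraries outside estrus and 18.1% and 15.1% in estrus, where Wnt4 makes up 29.1% and 30.3%.

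By mean level per length, the order in proestrus was Wnt5a (37.1 CPM per kb), Wnt4 (11.1), Wnt7a (9.89), Wnt16 (8.23), Wnt7b (6.38), Wnt5b (3.46), Wnt2b (0.423), Wnt2 (0.289), Wnt6 (0.251) and Wnt11 (0.00600). Between libraries the ranges of Wnt4 and Wnt7a, Wnt7a and Wnt16, Wnt16 and Wnt7b, and of each neighbouring pair from Wnt2b to Wnt6 overlapped. In estrus the first places were held by Wnt4 (22.6 CPM per kb), Wnt5a (12.6), Wnt7b (12.1) and Wnt7a (11.96), and the ranges of Wnt5a, Wnt7b and Wnt7a overlapped between libraries. In metestrus Wnt5a (36.8 CPM per kb), Wnt7a (14.8) and Wnt4 (9.68) led. In diestrus Wnt5a had 24.96 CPM per kb, and the means of Wnt5b (5.14), Wnt16 (4.37), Wnt7b (3.70), Wnt11 (3.37) and Wnt4 (3.19) lay well below it and close to each other, with library ranges of Wnt16, Wnt7b and Wnt11 that spanned their neighbours. Hence among these 10 ligands Wnt5a was the leading message outside estrus, while the order below it depended on the stage.

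Across the 4 stages tested together, 7 of the 10 ligands changed, namely Wnt2, Wnt2b, Wnt4, Wnt5a, Wnt6, Wnt7a and Wnt11. Of all genes tested, 39.1% were called in the same test. Wnt5b (adjusted p = 0.0600), Wnt7b (0.0936) and Wnt16 (0.380) did not pass. DESeq2 called 9 ligands, adding Wnt5b (0.0252) and Wnt7b (0.00305), and edgeR without a filter called 8, adding Wnt7b (0.0309). Over all genes, DESeq2 called 8523 and edgeR without a filter 6485, against 7085 in the main fit. The stage with the highest mean was proestrus for Wnt5a, estrus for Wnt2 and Wnt4, metestrus for Wnt7a, and diestrus for Wnt2b, Wnt6 and Wnt11. The count was 4 without any 1 of the proestrus or metestrus libraries, 3 without either estrus library, 9 without diestrus library 1 and 8 without diestrus library 2. A stage left with a lone library is assumed in these fits to vary like the other stages. The number of all genes called moved in these fits as well, as given at the end. The counts of the other Wnt lists without 1 library come from the same fits. Wnt2, Wnt4 and Wnt11 passed without any 1 library.

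**Figure D2:**
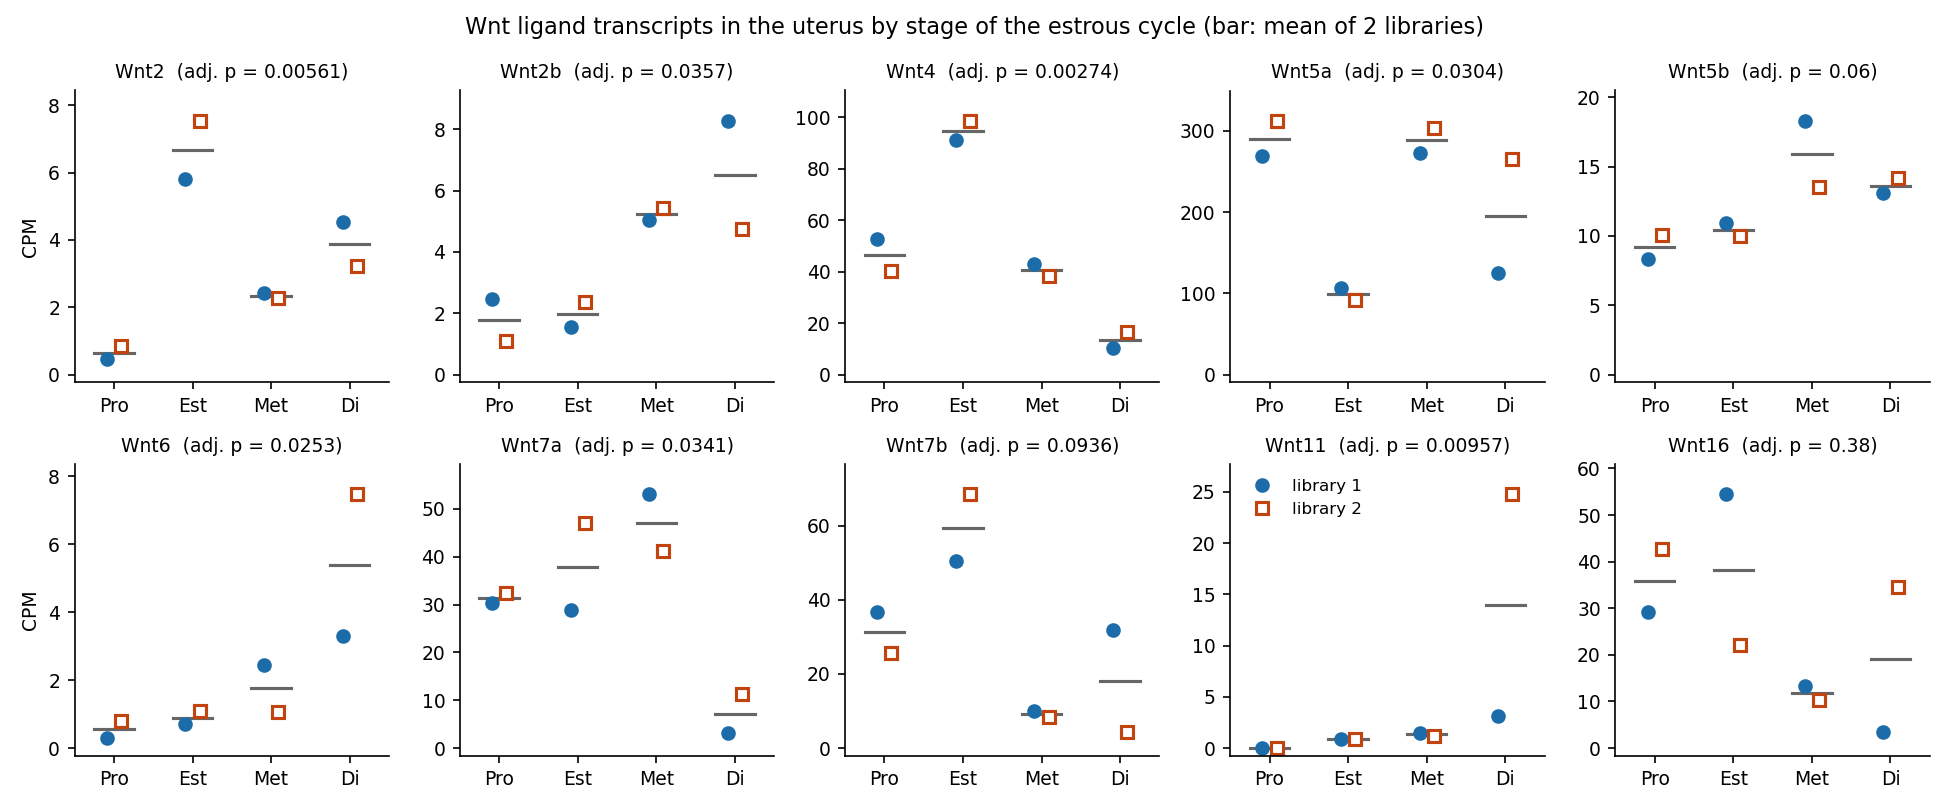
Level of each Wnt ligand in CPM in each library (points) and the mean of the stage (bar), 1 panel per gene, stages from proestrus to diestrus, each panel with its own axis. Wnt4 is highest in both estrus libraries, Wnt5a is lowest in both estrus libraries, and the diestrus points of Wnt7b, Wnt11 and Wnt16 lie far apart.

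Wnt4, which forms the Müllerian duct that becomes the uterus and is needed for decidualisation, was highest in estrus and lowest in diestrus. The gene lies at 137277489 to 137299726 on the plus strand of chromosome 4 (GRCm38). Its libraries had 52.8 and 40.4 CPM at proestrus, 91.1 and 98.5 at estrus, 42.9 and 38.3 at metestrus, and 10.3 and 16.5 at diestrus. Both estrus libraries lay above all others and both diestrus libraries below all others, while proestrus and metestrus overlapped. The 4-stage test gave an adjusted p of 0.00274, and no library or other setting tried removed it. Wnt4 averaged 94.8 ± 5.27 CPM in estrus and 46.6 ± 8.74 CPM in proestrus, a log2 fold change of 1.03 ± 0.23 (adjusted p = 0.0329). It then fell in metestrus relative to estrus, by 1.22 ± 0.23 on the log2 scale (adjusted p = 0.00967). The estrus mean was above the diestrus mean of 13.4 ± 4.38 CPM by 2.82 ± 0.25 (adjusted p = 0.00160), and proestrus was above diestrus by 1.80 ± 0.24 (adjusted p = 0.00461). These last 2 differences passed without any 1 library. The call of estrus over proestrus was lost without any 1 of the 6 libraries of proestrus, estrus and metestrus (adjusted p = 0.0736 to 0.182). The call of metestrus under estrus was lost without any 1 estrus or metestrus library (adjusted p = 0.0529 to 0.0814). Diestrus was below metestrus by a log2 difference of -1.60 ± 0.24, which just missed the threshold (adjusted p = 0.0562). It passed with DESeq2 (adjusted p = 3.9e-07) and with edgeR without a filter (0.00516). The difference was -1.31 without diestrus library 1 and -2.01 without diestrus library 2.

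Wnt5a, which drives outgrowth of the body axis and limbs and forms uterine glands in the mouse, ran opposite to Wnt4 in estrus. The gene is on the plus strand of chromosome 14, at 28504750 to 28527448. Its libraries had 268.8 and 312.1 CPM at proestrus, 106.1 and 91.5 at estrus, 272.3 and 303.8 at metestrus, and 125.5 and 265.0 at diestrus. Both estrus libraries lay below all others. Proestrus and metestrus overlapped, and diestrus library 2 was close to them, whereas diestrus library 1 was near estrus. Across stages Wnt5a had an adjusted p of 0.0304. Wnt5a averaged 98.8 ± 10.3 CPM in estrus and 290.5 ± 30.6 CPM in proestrus, so that it fell by 1.56 ± 0.33 on the log2 scale (adjusted p = 0.0266). In metestrus it averaged 288.1 ± 22.3 CPM and was above estrus by 1.54 ± 0.33 (adjusted p = 0.0135). The 4-stage call and the call of estrus under proestrus were each lost without any 1 of the 6 libraries outside diestrus (adjusted p = 0.0643 to 0.144 and 0.0615 to 0.137). The metestrus call was lost without any 1 estrus or metestrus library (adjusted p = 0.0547 to 0.0796). Estrus was below diestrus by a log2 difference of -0.98 ± 0.32 (adjusted p = 0.0694), which passed without diestrus library 1 (-1.45, adjusted p = 0.00210) and not without diestrus library 2 (-0.35, adjusted p = 0.150). Without diestrus library 2, the remaining diestrus library was also called below metestrus (-1.23, adjusted p = 0.00964) and below proestrus (proestrus minus diestrus 1.22, adjusted p = 0.00438). In the same libraries the 8 stromal markers, all with counts in every library, summed to 21420 and 25514 CPM at proestrus, 14453 and 9548 at estrus, 22183 and 15315 at metestrus, and 17990.5 and 16944 at diestrus. The list was split in estrus minus proestrus. Col1a1 (-1.84), Col1a2 (-1.35), Col3a1 (-1.09) and Lum (-0.92) had negative log2 differences. Pdgfrb (0.76), Pdgfra (0.72), Vim (0.31) and Dcn (0.10) had positive ones. The part of these markers in the result was not tested. Of the 7823 exon bases of Wnt5a, 358 lie opposite exons of the antisense gene Gm2670, and reads of the pair cannot be told apart here because the strand setting of the counting is not given.

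Wnt7a, which is known from the uterine epithelium and keeps the identity of the reproductive tract in the mouse, was lowest in diestrus. It lies on the minus strand of chromosome 6, at 91363981 to 91411363. Its libraries had 30.4 and 32.4 CPM at proestrus, 28.9 and 47.0 at estrus, 53.0 and 41.2 at metestrus, and 3.19 and 11.2 at diestrus. Diestrus lay below all 6 other libraries, which did not separate by stage except that metestrus was above proestrus. Across stages the adjusted p was 0.0341. Wnt7a averaged 37.9 ± 12.8 CPM in estrus and 7.22 ± 5.69 CPM in diestrus, a log2 fold change of 2.40 ± 0.54 (adjusted p = 0.0235). Proestrus, with 31.4 ± 1.42 CPM, was above diestrus by 2.12 ± 0.54 (adjusted p = 0.0342). Diestrus was below the metestrus mean of 47.1 ± 8.40 CPM by a log2 difference of -2.71 ± 0.55, which did not pass (adjusted p = 0.103). It passed with DESeq2 (adjusted p = 8.68e-06) and with edgeR without a filter (0.0135). Estrus minus diestrus was 1.73 without diestrus library 1 and 3.56 without library 2. Proestrus minus diestrus was 1.46 without library 1 and 3.30 without library 2, and diestrus minus metestrus -2.08 without library 1 and -3.92 without library 2. The 4-stage call was lost without any 1 of the 6 libraries outside diestrus (adjusted p = 0.0720 to 0.0972). The call against proestrus was lost without any of these 6 too (0.0573 to 0.124), and that against estrus without any 1 estrus or metestrus library (0.0524 to 0.109).

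Wnt7b, the close relative of Wnt7a known for blood vessel growth in the mouse brain and for lung growth, was highest in estrus and low in metestrus. Wnt7b is on the minus strand of chromosome 15, at 85535437 to 85582473. Its libraries had 36.8 and 25.8 CPM at proestrus, 50.4 and 68.4 at estrus, 10.1 and 8.26 at metestrus, and 31.8 and 4.44 at diestrus. The first 3 stages did not overlap, and the diestrus libraries lay 7.18-fold apart. Wnt7b averaged 9.17 ± 1.30 CPM in metestrus and 59.4 ± 12.7 CPM in estrus, so that it fell by 2.69 ± 0.79 on the log2 scale (adjusted p = 0.0375). That call was lost without any 1 of the 6 libraries outside diestrus (adjusted p = 0.0601 to 0.180). The 4-stage test missed the threshold with all libraries (adjusted p = 0.0936) and passed without diestrus library 1 (0.00105), without diestrus library 2 (0.00206) and without both (0.00154), and with DESeq2 (0.00305). Without diestrus library 1, estrus was above proestrus by 0.92 (adjusted p = 0.0311) and metestrus below it by a log2 difference of -1.74 (0.00458). Without diestrus library 2 these were 0.91 (adjusted p = 0.0309) and -1.74 (0.00454). Against diestrus the values turned on which library was kept. Estrus minus diestrus was 1.71 with both (adjusted p = 0.148), 3.71 without library 1 (0.00163) and 0.89 without library 2 (0.0675). Diestrus minus metestrus was 0.99 with both (adjusted p = 0.517), -1.06 without library 1 (0.199) and 1.76 without library 2 (0.0146). Proestrus minus diestrus was 0.78 with both (adjusted p = 0.490), 2.80 without library 1 (0.00333) and -0.02 without library 2 (0.964). Of its 4898 exon bases, 324 lie opposite exons of the antisense gene AU022754, so that reads of this pair cannot be told apart either.

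The 8 epithelial markers, all with counts in every library, summed to 6814 and 5719 CPM at proestrus, 4433 and 3874 at estrus, 1443 and 1332 at metestrus, and 958 and 1121 at diestrus. All 8 passed the 4-stage test, each with its highest mean in proestrus. Beside these, Wnt7a was at 53.0 and 41.2 CPM in metestrus, where the marker sum was below estrus. Wnt7b lay below its metestrus values in diestrus library 2 and above them in diestrus library 1. The part of the epithelial share of the tissue in the changes of either ligand was not tested. Across the 8 libraries the log2 CPM of Wnt7a and Wnt7b had a Pearson r of 0.06, which describes libraries that share stages and is no test.

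Wnt16, known for keeping cortical bone thick in the mouse, was not called in the 4-stage test or in any pair of stages. Wnt16 is on the plus strand of chromosome 6, at 22288227 to 22298522. Its libraries had 29.1 and 42.7 CPM at proestrus, 54.4 and 22.2 at estrus, 13.3 and 10.4 at metestrus, and 3.46 and 34.6 at diestrus. The metestrus libraries lay below those of proestrus and estrus, and the diestrus libraries were 10-fold apart, the widest gap of any of the 10 ligands. The adjusted p of the 4-stage test was 0.380 with all libraries, 0.0570 without diestrus library 1, 0.0110 without diestrus library 2 and 0.0353 without both diestrus libraries. Metestrus minus estrus was -1.70 ± 0.93 (adjusted p = 0.197), and was called without diestrus library 1 (-1.65, adjusted p = 0.0212) or library 2 (-1.65, 0.0216). Metestrus minus proestrus was -1.60 ± 0.93 (adjusted p = 0.265), and was called without diestrus library 1 (-1.57, adjusted p = 0.0384) or library 2 (-1.57, 0.0389). Without diestrus library 2, estrus was above diestrus by 3.46 (adjusted p = 0.0128) and proestrus above it by 3.38 (0.0126), against 1.01 and 0.92 with both. Without diestrus library 1 these differences were 0.11 (adjusted p = 0.887) and 0.04 (0.971).

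Wnt2, which with Wnt2b starts lung formation in the mouse embryo and which the placenta also needs, showed the largest rise of estrus over proestrus that passed the test among the 10 ligands. It lies on the minus strand of chromosome 6, at 17988940 to 18030585. Its libraries had 0.461 and 0.844 CPM at proestrus, 5.80 and 7.54 at estrus, 2.41 and 2.27 at metestrus, and 4.54 and 3.23 at diestrus. The proestrus values rest on 9 and 17 counts and the estrus values on 116 and 146. No 2 stages overlapped, with proestrus lowest, then metestrus, diestrus and estrus. The 4-stage test gave an adjusted p of 0.00561 and passed without any 1 library. Wnt2 averaged 6.67 ± 1.23 CPM in estrus and 0.653 ± 0.270 CPM in proestrus, a log2 fold change of 3.34 ± 0.39 (adjusted p = 0.00553). Proestrus was also below diestrus, at 3.89 ± 0.930 CPM, by a log2 difference of -2.56 ± 0.38 (adjusted p = 0.00641). These calls passed without any 1 library. Metestrus, at 2.34 ± 0.101 CPM, was below estrus by a log2 difference of -1.51 ± 0.35 (adjusted p = 0.0173) and above proestrus by 1.83 ± 0.38 (adjusted p = 0.0240). The call of metestrus under estrus was lost without any 1 estrus or metestrus library (adjusted p = 0.0583 to 0.111). That over proestrus was lost without either metestrus library or proestrus library 1 (0.111 to 0.137). The 7 leukocyte markers, 6 of which had counts in every library, summed to 279 and 160 CPM at proestrus, 585 and 618 at estrus, 175 and 189 at metestrus, and 194 and 218 at diestrus. This sum was highest in estrus, as Wnt2 and Wnt4 were, and its part in their values was not tested.

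Wnt2b was high in metestrus and diestrus, at a low level. Its gene is on the minus strand of chromosome 3, at 104945272 to 104961921. Its libraries had 2.46 and 1.09 CPM at proestrus, 1.55 and 2.37 at estrus, 5.04 and 5.43 at metestrus, and 8.28 and 4.74 at diestrus. Metestrus and diestrus together lay above proestrus and estrus with no overlap. The 4-stage test gave an adjusted p of 0.0357, lost without any 1 estrus or metestrus library or proestrus library 2 (0.0551 to 0.0975). Proestrus, at 1.78 ± 0.968 CPM, was below diestrus, at 6.51 ± 2.50 CPM, by a log2 difference of -1.87 ± 0.48 (adjusted p = 0.0341). Estrus, at 1.96 ± 0.583 CPM, was below diestrus by a log2 difference of -1.73 ± 0.47 (adjusted p = 0.0408). Proestrus minus diestrus was -1.43 without diestrus library 1 and -2.21 without library 2. Estrus minus diestrus was -1.30 and -2.08 in the same order. The proestrus call was lost without any 1 library except diestrus library 2 (adjusted p = 0.0511 to 0.123). The estrus call was lost without any 1 estrus or metestrus library or diestrus library 1 (0.0764 to 0.193). Metestrus minus estrus was 1.41 ± 0.47 (adjusted p = 0.0551), and passed without any 1 proestrus or diestrus library (0.0305 to 0.0383). Metestrus minus proestrus was 1.56 ± 0.47 (adjusted p = 0.0670), and was called without diestrus library 1 (0.0373) or 2 (0.0359).

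Wnt6, which acts in the mouse on epithelia and on the growth of uterine stroma, had its highest values in diestrus. It lies on the plus strand of chromosome 1, at 74771892 to 74785322. Its libraries had 0.308 and 0.794 CPM at proestrus, 0.700 and 1.08 at estrus, 2.46 and 1.07 at metestrus, and 3.28 and 7.46 at diestrus. The counts behind these were 6 and 16 in proestrus and 73 and 148 in diestrus. Both diestrus libraries lay above all others, and the neighbouring stages before diestrus overlapped. For Wnt6 the 4-stage test gave an adjusted p of 0.0253. Proestrus, at 0.551 ± 0.344 CPM, was below diestrus, at 5.37 ± 2.96 CPM, by a log2 difference of -3.27 ± 0.69 (adjusted p = 0.0199). Estrus, at 0.892 ± 0.271 CPM, was below diestrus by a log2 difference of -2.58 ± 0.66 (adjusted p = 0.0336). Proestrus minus diestrus was -3.76 without diestrus library 1 and -2.55 without library 2. Estrus minus diestrus was -3.09 and -1.88 in the same order. The 4-stage call was lost without proestrus library 1 (0.0613), estrus library 1 (0.0788), estrus library 2 (0.0660) or diestrus library 2 (0.0603). The call against proestrus was lost without proestrus library 1 (0.122), and that against estrus without estrus library 1 (0.179), estrus library 2 (0.117) or diestrus library 2 (0.0912).

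Wnt11, which guides branching of the ureteric bud in the mouse kidney, was close to absent in proestrus and had its highest counts in diestrus. Wnt11 is on the plus strand of chromosome 7, at 98835112 to 98855195. Its libraries had 0 and 1 count at proestrus, 17 and 18 at estrus, 34 and 27 at metestrus, and 70 and 491 at diestrus. In CPM these were 0 and 0.0496 at proestrus, 0.850 and 0.929 at estrus, 1.52 and 1.15 at metestrus, and 3.15 and 24.8 at diestrus. No 2 stages overlapped, and the order followed the cycle from proestrus to diestrus. The diestrus libraries were 7.86-fold apart. The 4-stage test gave an adjusted p of 0.00957 and passed without any 1 library. With limma-voom Wnt11 did not pass across stages (adjusted p = 0.220), in proestrus against diestrus (0.105) or in estrus against diestrus (0.134). Proestrus was below diestrus (adjusted p = 0.00833), with 1 count in the proestrus libraries and 561 in the diestrus libraries. The ratio of proestrus over diestrus, each scaled to its library size, was 0.00189, with a 95% interval from 4.78e-05 to 0.0106 that covers counting error only. Without diestrus library 2, which gave 491 of the 561 counts, it was 0.00801 (interval 0.000200 to 0.0461), and without diestrus library 1 it was 0.00102 (2.57e-05 to 0.00570). Estrus was below diestrus by a log2 difference of -3.96 ± 0.96 (adjusted p = 0.0283). The difference was -4.82 without diestrus library 1 and -1.82 without diestrus library 2. The call against proestrus was lost without proestrus library 1 (adjusted p = 0.0709), and that against estrus without any 1 estrus or metestrus library (0.0581 to 0.154). The ratio of estrus over proestrus was 35.3 (counting interval 5.93 to 1432) and that of metestrus over proestrus 52.8 (9.13 to 2121). These did not pass with all libraries (adjusted p = 0.0854 and 0.0552), and both passed without diestrus library 1 (0.00517 and 0.00254) or library 2 (0.00767 and 0.00400). Diestrus minus metestrus was 3.38 ± 0.92 (adjusted p = 0.167), 4.19 without library 1 (0.0106) and 1.20 without library 2 (0.159). Of its 4137 exon bases, 364 lie opposite the pseudogene Gm8398.

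Wnt5b, the close relative of Wnt5a, varied least between stages, with its highest mean 1.73-fold above its lowest. It lies on the minus strand of chromosome 6, at 119432531 to 119544347. Its libraries had 8.31 and 10.1 CPM at proestrus, 10.96 and 9.96 at estrus, 18.3 and 13.5 at metestrus, and 13.1 and 14.2 at diestrus. The metestrus and diestrus libraries lay above those of proestrus and estrus. The 4-stage test did not pass with edgeR and all libraries (adjusted p = 0.0600). It passed with DESeq2 (0.0252), without diestrus library 1 (0.0488) and without both diestrus libraries (0.0329), and not without diestrus library 2 (0.0530). Metestrus averaged 15.9 ± 3.38 CPM and was above proestrus, at 9.19 ± 1.25 CPM, by 0.79 ± 0.21 on the log2 scale (adjusted p = 0.0457). That call was lost without any 1 of the 6 libraries outside diestrus (adjusted p = 0.0784 to 0.244). Metestrus minus estrus was 0.60 ± 0.21 (adjusted p = 0.0604), and was called without diestrus library 1 (0.0451) or 2 (0.0460).

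Taken by pairs of stages, 20 of the 60 tests of a ligand were called. In estrus against proestrus, Wnt2 and Wnt4 rose, where 8.12% of all genes were called higher, and Wnt5a fell, where 6.94% were called lower. In metestrus against estrus, Wnt5a rose, where 16.7% of all genes were called higher, and Wnt2, Wnt4 and Wnt7b fell, where 19.5% were called lower. These pairs share the estrus libraries. In diestrus against metestrus edgeR called 0 of the 10, where 0.282% of all genes were called higher and 0.226% lower. There 4 ligands had an unadjusted p under 0.05, DESeq2 called 3 (Wnt4, Wnt7a and Wnt11) and limma-voom called 0. In proestrus against diestrus, Wnt4 and Wnt7a were higher, as were 12.0% of all genes, and Wnt2, Wnt2b, Wnt6 and Wnt11 were lower, as were 10.4%. In estrus against diestrus, Wnt4 and Wnt7a were higher, against 13.9% of all genes, and Wnt2b, Wnt6 and Wnt11 were lower, against 9.97%. In metestrus against proestrus, Wnt2 and Wnt5b were higher, where 6.68% of all genes were called higher, and no ligand was called lower, where 10.3% of all genes were. The lower side there held 0 of 10 ligands by edgeR, and Wnt7b was the ligand with the smallest unadjusted p on it (0.0568). By DESeq2, Wnt7b passed on that side (adjusted p = 0.0402). The median log2 fold change of the 10 ligands was 0.48 in estrus against proestrus, 0.45 in metestrus against estrus, 0.50 in diestrus against metestrus, 0.00 in proestrus against diestrus, 0.20 in estrus against diestrus and 0.69 in metestrus against proestrus. Over all genes tested the medians lay between -0.05 and 0.02.

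The 3 calls of estrus against proestrus were 1 without any 1 of the 6 libraries outside diestrus and 5 without either diestrus library. The 4 of metestrus against estrus were 0 without any 1 estrus or metestrus library, where 4 or 5 ligands had an unadjusted p under 0.05, and 7 without either diestrus library. The 0 of diestrus against metestrus was 3 without diestrus library 1 and 4 without diestrus library 2. The 6 of proestrus against diestrus were 2 without proestrus library 1. The 5 of estrus against diestrus were 1 without either estrus library and 2 without either metestrus library. The 2 of metestrus against proestrus were 0 without proestrus library 1 or either metestrus library, where 2 to 5 ligands had an unadjusted p under 0.05, and 1 without proestrus library 2 or either estrus library. They were 6 without either diestrus library. The counts over all genes also moved, to between 415 and 4713 for estrus against proestrus, 2128 and 8257 for metestrus against estrus, 0 and 2024 for diestrus against metestrus, 1162 and 4649 for proestrus against diestrus, 1336 and 5173 for estrus against diestrus, and 16 and 5001 for metestrus against proestrus. With all libraries they were 2727, 6563, 92, 4050, 4317 and 3067 in the same order. The 0 was edgeR's without metestrus library 1 or 2, where 2052 and 1621 genes had an unadjusted p under 0.05.

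**Figure D3:**
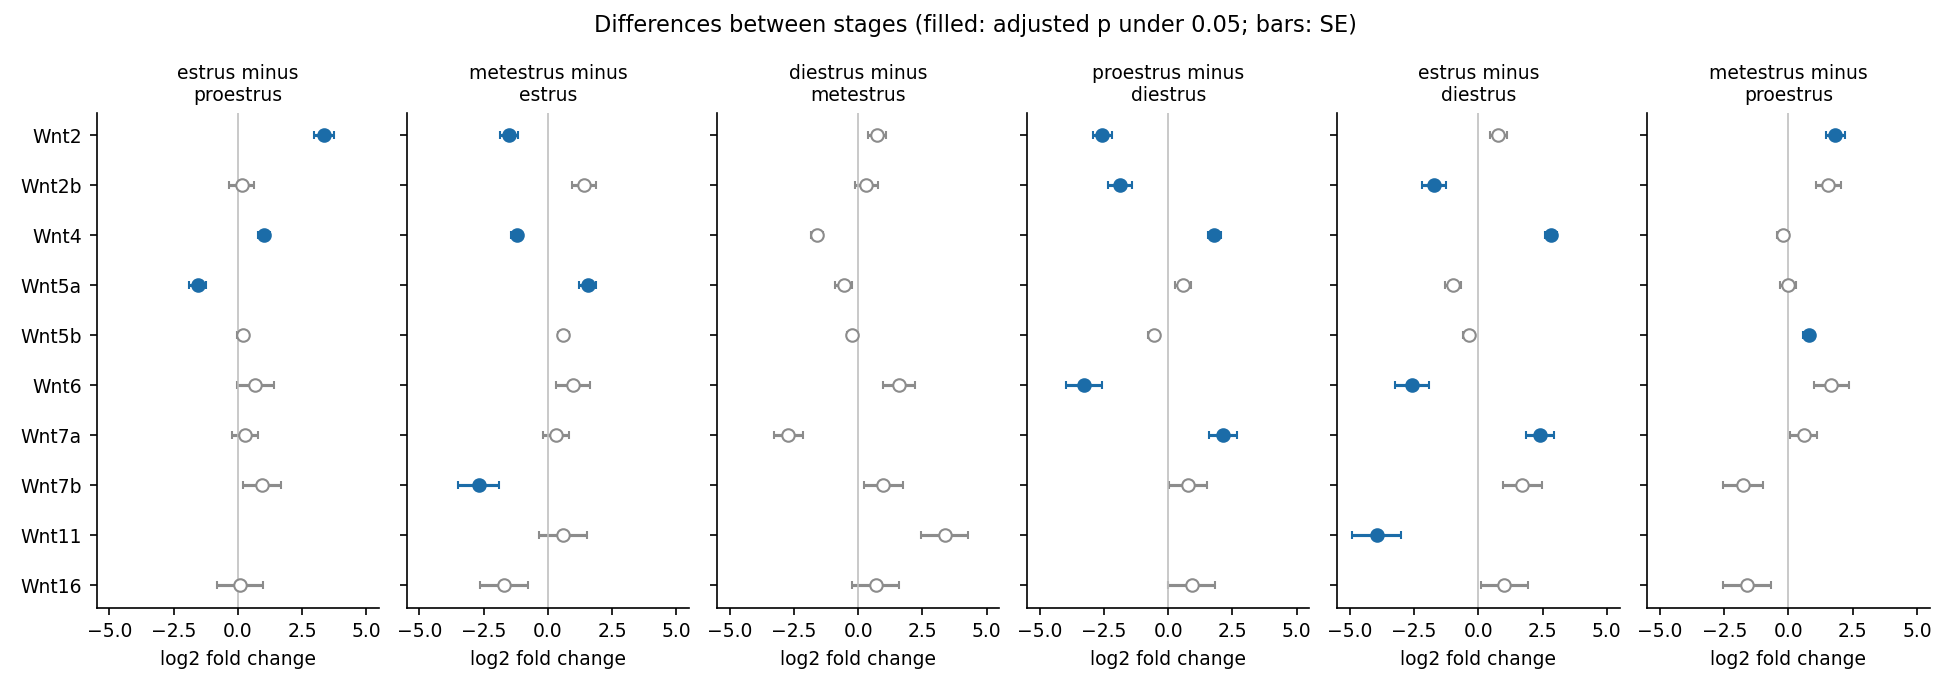
Log2 fold change with its SE for each Wnt ligand in each of the 6 pairs of stages, filled where the adjusted p is under 0.05, with Wnt11 left out of the 3 pairs with proestrus because of its near-zero counts there. Wnt4 (1.03) and Wnt5a (-1.56) move in opposite directions in estrus against proestrus, and Wnt6 (-3.27) and Wnt7a (2.12) do so in proestrus against diestrus.

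The 2 libraries of diestrus differed from each other in several ligands. Wnt16 was 10-fold, Wnt11 7.86-fold, Wnt7a 3.52-fold, Wnt6 2.27-fold and Wnt5a 2.11-fold higher in library 2. Wnt7b was 7.18-fold higher in library 1, and Wnt2b 1.75-fold. Wnt5b, at 1.08-fold, differed least. Hence 6 of the 10 ligands were over 2-fold apart in diestrus, where 15.0% of all genes were. The gland marker sums of these libraries were 7723 CPM in library 1, mostly from Prss29 and Prss28, and 56.6 CPM in library 2. The smooth muscle sums were 17555 and 6806 CPM. Both sums were higher in library 1, as Wnt7b and Wnt2b were, while the 5 ligands over 2-fold higher in library 2 ran the other way. The part of the marker sums in these differences was not tested. The 6 endothelial markers, all detected in every library, summed to 786 and 576 CPM in diestrus, against 409 to 527 CPM in the other stages. The 4 mesothelial markers, also all detected, summed to 204 and 136 CPM in diestrus and 69.5 to 179 CPM in the other stages. Of the 4 adipocyte markers 1 had counts in every library, and their sum lay between 0.759 and 31.6 CPM.

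**Figure D4:**
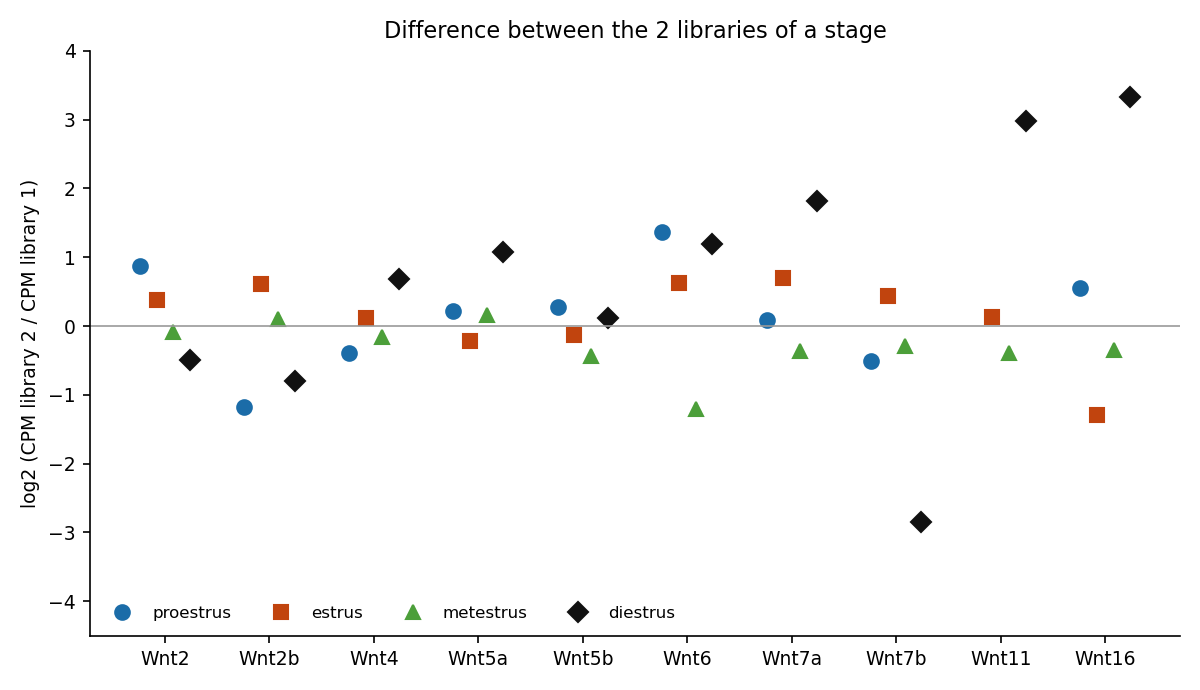
Log2 ratio of library 2 over library 1 within each stage for each Wnt ligand, with Wnt11 left out in proestrus where library 1 had no count. The diestrus points spread widest, from Wnt7b, 7.18-fold higher in library 1, to Wnt16, 10-fold higher in library 2.

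Several ligands varied together over the 8 libraries, which share their stages. On log2 CPM, Wnt6 and Wnt11 had a Pearson r of 0.92, Wnt4 and Wnt7a of 0.84, and Wnt5b and Wnt6 of 0.74. The lowest were -0.84 for Wnt2b with Wnt16, -0.78 for Wnt2 with Wnt5a, and -0.71 for both Wnt4 with Wnt6 and Wnt5a with Wnt7b. Close relatives in sequence were not alike in pattern, with r of 0.22 for Wnt5a with Wnt5b and 0.27 for Wnt2 with Wnt2b. These are descriptions over n = 8 libraries with no test.

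Among the 14527 protein-coding genes tested, those with the pattern most like each changed ligand were ranked by the same r over the 8 libraries. For Wnt2 they were Slc38a4 (0.992), an amino acid transporter, Maats1 (0.989) and Mmp3 (0.984), a matrix-degrading protease. Wnt2b had Mfhas1 (0.970), Ric8b (0.970) and Myrf (0.967). Wnt4 had Kcnrg (0.984), Tcf20 (0.976) and Steap1 (0.969), a metalloreductase of the cell membrane. With so many genes and only 8 libraries, high values of r are found for many genes. For Wnt5a the list held Gpaa1 (0.988) and Cacna1g (0.986), a calcium channel. Wnt6 had Bok (0.979), Lrrc27 (0.975) and Zfp799 (0.974). Wnt7a had Dlgap1 (0.973), Iffo2 (0.964) and Togaram2 (0.958). For Wnt11 it held Rnf157 (0.991) and the transcription factors Hoxa9 (0.987) and Nr2f2 (0.983), of which Nr2f2 is known from uterine stroma in the mouse.

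Of the 9 other Wnt genes listed, Wnt9a was the only one to pass the filter on low counts. It had 21.7 and 21.5 CPM at proestrus, 26.5 and 25.5 at estrus, 41.3 and 32.6 at metestrus, and 24.1 and 27.6 at diestrus. The metestrus libraries lay above all others (adjusted p = 0.0285 in the 4-stage test). That call was lost without any 1 proestrus or estrus library or metestrus library 1 (adjusted p = 0.0757 to 0.137). With a mean of 6.50 CPM per kb in proestrus and 11.1 in metestrus, Wnt9a had a level per length close to that of Wnt7b in proestrus (6.38). Wnt3a and Wnt8a had no count in any library.

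Both genes that prepare and export Wnt proteins were highest in estrus, and both passed the 4-stage test, which 39.1% of all genes tested passed. Porcn, the acyltransferase that adds the lipid, averaged 29.1 ± 0.0653 CPM at proestrus, 37.8 ± 8.21 at estrus, 15.6 ± 1.64 at metestrus and 27.5 ± 5.71 at diestrus (adjusted p = 0.0185). Wls, the carrier that takes all lipid-bearing Wnt proteins to the surface, averaged 217.7 ± 24.5 CPM at proestrus, 312.6 ± 30.6 at estrus, 178.0 ± 5.67 at metestrus and 210.1 ± 30.2 at diestrus (adjusted p = 0.0229). In both genes the metestrus libraries lay below all others, at 16.7 and 14.4 CPM for Porcn and 182 and 174 CPM for Wls. The 4-stage call of Porcn was lost without any 1 proestrus or metestrus library or estrus library 2 (0.0509 to 0.120). That of Wls was lost without any 1 of the 6 libraries outside diestrus (0.0503 to 0.127).

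Of 18 receptor and co-receptor genes, all tested, 9 (50%) changed across stages, against 39.1% of all genes tested, and 4 of these had their highest mean in diestrus, 3 in estrus and 1 each in proestrus and metestrus. Fzd1, a Frizzled receptor, averaged 65.2 ± 5.52 CPM at proestrus, 65.2 ± 1.82 at estrus, 87.6 ± 3.63 at metestrus and 203.8 ± 7.19 at diestrus (adjusted p = 0.000893). Fzd7, another Frizzled, averaged 49.4 ± 7.03 CPM at proestrus, 153.2 ± 19.9 at estrus, 62.2 ± 4.13 at metestrus and 76.4 ± 24.2 at diestrus (adjusted p = 0.00820). Fzd3, a Frizzled of planar polarity signalling, averaged 10.996 ± 0.0400 CPM at proestrus, 22.5 ± 2.91 at estrus, 18.0 ± 1.07 at metestrus and 20.5 ± 0.00863 at diestrus (adjusted p = 0.00991). Fzd7 and Fzd3 had their highest mean in estrus, and Fzd1 in diestrus. Fzd7 did not pass without estrus library 1 (0.0557), nor Fzd3 without proestrus library 1 (0.0612) or 2 (0.0598). The count of 9 was 5 without any 1 proestrus or metestrus library, 2 without estrus library 1 and 4 without estrus library 2.

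Of 14 secreted antagonists, 10 were tested and 5 of the 10 (50%) changed, against 39.1% of all genes tested. Sfrp1, a decoy that binds Wnt proteins, averaged 19.7 ± 4.25 CPM at proestrus, 17.9 ± 2.12 at estrus, 38.1 ± 7.22 at metestrus and 67.7 ± 8.73 at diestrus (adjusted p = 0.00345). Sfrp2, of the same family, averaged 26.1 ± 13.8 CPM at proestrus, 55.7 ± 4.04 at estrus, 59.4 ± 2.90 at metestrus and 161.8 ± 39.4 at diestrus (adjusted p = 0.00854). Dkk3, a divergent member of the Dickkopf family, averaged 36.2 ± 9.69 CPM at proestrus, 177.7 ± 14.6 at estrus, 164.6 ± 18.5 at metestrus and 176.9 ± 78.2 at diestrus (adjusted p = 0.00921). Sfrp1 and Sfrp2 were highest in diestrus, and Dkk3 was low in proestrus alone. The count of 5 was 3 without proestrus library 1, where Dkk3 had an adjusted p of 0.0561, 8 without diestrus library 1 and 9 without diestrus library 2.

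Of 9 genes for R-spondins, which amplify Wnt signals, their receptors and the ligases they restrain, 8 were tested and 5 (62.5%) changed, against 39.1% of all genes tested. Rspo3, an R-spondin, averaged 20.6 ± 5.41 CPM at proestrus, 149.6 ± 16.5 at estrus, 28.3 ± 0.728 at metestrus and 46.0 ± 2.41 at diestrus (adjusted p = 0.00109). Lgr6, an R-spondin receptor, averaged 137.0 ± 17.6 CPM at proestrus, 5.91 ± 0.982 at estrus, 53.6 ± 5.01 at metestrus and 19.7 ± 12.6 at diestrus (adjusted p = 0.00327). Znrf3, a ligase that removes Frizzled receptors from the surface, averaged 14.4 ± 0.987 CPM at proestrus, 18.1 ± 0.0991 at estrus, 30.8 ± 1.67 at metestrus and 29.3 ± 1.93 at diestrus (adjusted p = 0.00384). Rspo3 was high and Lgr6 low in both estrus libraries, the stage in which Wnt2 and Wnt4 were high and Wnt5a low. All 3 passed without any 1 library.

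Of 11 components that relay the signal through beta-catenin, 1 (9.09%) changed, against 39.1% of all genes tested. Ctnnb1, which encodes beta-catenin, averaged 1168 ± 31.3 CPM at proestrus, 1207 ± 43.4 at estrus, 745.8 ± 10.9 at metestrus and 683.5 ± 31.3 at diestrus (adjusted p = 0.00522). It passed without any 1 library, and the count was 2 without either diestrus library. Of 6 genes known as direct targets of beta-catenin in many tissues, 5 (83.3%) changed, beside the same 39.1%. Axin2, which feeds back on the pathway, averaged 78.5 ± 4.07 CPM at proestrus, 56.4 ± 3.06 at estrus, 105.9 ± 2.52 at metestrus and 65.4 ± 7.80 at diestrus (adjusted p = 0.00705). Both estrus libraries, at 58.5 and 54.2 CPM, lay below all others, and both metestrus libraries, at 104.1 and 107.7 CPM, above all others, and it passed without any 1 library. Sp5, a transcription factor, averaged 1.14 ± 0.419 CPM at proestrus, 1.95 ± 0.783 at estrus, 8.08 ± 1.46 at metestrus and 6.41 ± 1.63 at diestrus (adjusted p = 0.00824). Lef1, which binds DNA with beta-catenin, averaged 2.21 ± 0.377 CPM at proestrus, 5.02 ± 1.37 at estrus, 10.4 ± 0.00570 at metestrus and 26.5 ± 22.1 at diestrus (adjusted p = 0.0170). Lef1 had 10.9 and 42.1 CPM in the diestrus libraries, so that library 2 was the higher, as it was for Wnt11. Its call was lost without any 1 proestrus or metestrus library or estrus library 1 (0.0501 to 0.0618). The count of 5 targets was 2 without either proestrus library or estrus library 1 and 3 without estrus library 2.

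Of 9 planar polarity genes, 8 were tested and 5 (62.5%) changed, against 39.1% of all genes tested. Celsr1, an adhesion receptor at cell borders, averaged 130.1 ± 11.6 CPM at proestrus, 102.7 ± 2.93 at estrus, 64.1 ± 2.27 at metestrus and 50.9 ± 2.77 at diestrus (adjusted p = 0.00166). Celsr2, of the same family, averaged 152.6 ± 18.1 CPM at proestrus, 168.0 ± 0.750 at estrus, 65.7 ± 6.80 at metestrus and 36.2 ± 11.7 at diestrus (adjusted p = 0.00306). Prickle1, a cytoplasmic planar polarity protein, averaged 27.0 ± 4.26 CPM at proestrus, 20.2 ± 3.94 at estrus, 38.5 ± 1.99 at metestrus and 66.1 ± 10.9 at diestrus (adjusted p = 0.00477). All 3 passed without any 1 library. Both Celsr genes and the epithelial marker sum, 6814 and 5719 CPM in proestrus and 958 and 1121 CPM in diestrus, were higher in proestrus than in diestrus, and the part of the marker sum in the levels of these genes was not tested.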

How the data were processed

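Per the submitters' processing notes, reads were aligned with STAR to GRCm38 (mm10) and counted with featureCounts of the Subread package. Their versions, the annotation and the strandedness used in counting are not given in these sources. The deposited values are raw counts per gene, made by the authors and not normalised. Per the labels' protocols, libraries came from a stranded mRNA kit. Symbols, coordinates and exon lengths (overlapping exons merged) came from GENCODE M21, and 250 identifiers, with at most 0.0107% of a library's counts, were not found there. RefSeq gave the promoters.

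The tests used edgeR 4.0.16 (R 4.3.3). filterByExpr by stage kept 18114 genes and left out 34194. All 8 libraries entered a quasi-likelihood fit with a coefficient for each stage and TMM factors, with 4 residual and 2.70 prior degrees of freedom, and tests were two-sided. An SE was taken as the absolute log2 fold change over the square root of F. Log2 CPM for correlations had a prior count of 2. Where a stage held 1 count, a ratio of counts replaces the fold change, with a 95% exact interval for counting error. Procedures were tested on simulated data. The count in a stage rests on library totals from 17863546 to 21896786.

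Alternatives were DESeq2 size factors, DESeq2 1.42.0, limma-voom (limma 3.58.1), no filter, a filter at 1 CPM in 2 libraries, the replicate number as a block, only the libraries of a pair, and each library left out. Leaving out both diestrus libraries was added after seeing the data. The ligands and the other gene lists were chosen with earlier results of these data known. Named were all 10 ligands, up to 3 changed genes with the smallest p of each other Wnt list, and the 3 protein-coding genes most like each changed ligand. Some genes that this rule takes are not reported here.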

Additional observations from a re-analysis of the deposited data

How the results depend on the processing

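With 2 libraries a stage, many calls depended on single libraries. Leaving out 1 library in turn gave 3 to 9 ligands called across stages. By pair the range was 1 to 5 for estrus against proestrus, 0 to 7 for metestrus against estrus, 0 to 4 for diestrus against metestrus, 2 to 8 for proestrus against diestrus, 1 to 6 for estrus against diestrus and 0 to 6 for metestrus against proestrus. For the lists it was 0 to 1 other Wnt genes, 0 to 2 secretion genes, 2 to 11 receptors, 3 to 9 antagonists, 4 to 7 amplifiers, 1 to 2 beta-catenin components, 2 to 6 targets and 4 to 7 planar polarity genes. Among the secretion genes 1 or 2 of 2 had an unadjusted p under 0.05 in edgeR where none was called.

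DESeq2 called 9 ligands across stages, 3 in diestrus against metestrus, 5 in metestrus against proestrus and 2 beta-catenin components. Over all genes DESeq2 called 8523 across stages (7085 in the main fit) and 4083 in metestrus against proestrus (3067). Without a filter, 8 ligands were called across stages and 2 in diestrus against metestrus. With limma-voom, 3 antagonists were called, and Wnt11 (adjusted p = 0.220) and Wnt6 (0.0557) were lost across stages. With only the libraries of the pair, the count was 7 for metestrus against estrus, 6 for metestrus against proestrus, and 1 for each of estrus and proestrus against diestrus. Without both diestrus libraries it was 5 for estrus against proestrus, 7 for metestrus against estrus and 6 for metestrus against proestrus, with 8 antagonists and 2 components across stages, and Wnt6 (0.116) and Wnt7a (0.155) were lost. DESeq2 size factors and the filter at 1 CPM changed no call of a ligand. Among pairs of stages in which a ligand was called under some setting, only Wnt7b changed sign. In diestrus against metestrus it was -1.06 without diestrus library 1, against 1.76 without library 2. In proestrus against diestrus it was -0.022 without diestrus library 2, against 2.80 without library 1. Pairs called under no setting also held changes of sign. Beyond the libraries named, the cause was not tested.

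Among all 18114 genes tested, 7085 were called across stages and 2941 to 9539 without 1 library. In diestrus against metestrus 92 genes were called, against 992 by DESeq2, 294 without a filter, 61 with the block, and 0 by edgeR with only the libraries of the pair, where 2180 had an unadjusted p under 0.05. With only the libraries of the pair, 1939 genes were called in estrus against diestrus (4317 with all libraries) and 1130 in proestrus against diestrus (4050). In the same setting 4769 were called in metestrus against proestrus (3067) and 8197 in metestrus against estrus (6563). Without both diestrus libraries, 4781 were called in estrus against proestrus (2727) and 5054 in metestrus against proestrus (3067). In that fit 8234 were called in metestrus against estrus (6563) and 9256 across stages (7085).

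The deviations of same-numbered libraries from their stage means correlated at -0.0926 to 0.145 between stages, so the numbers were not taken to pair libraries. With the replicate number as a block, 7 ligands were called across stages and 1 in metestrus against proestrus, and 18 of the 20 pair calls were kept. Lost were Wnt2b in estrus against diestrus (0.0560) and Wnt5b in metestrus against proestrus (0.0598).

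Low counts limit Wnt2, Wnt6 and Wnt11 in proestrus.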
